A study of Bos taurus with 36 samples.

Results

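The S100 genes S100A8, S100A9, S100A12, S100A4, S100A10 and S100A11 were described in bovine mammary tissue. They are 6 of the 9155 genes that the array's annotation names by a single symbol, and were taken as every probe set with 1 of these symbols, which gave 8 of the 24128 probe sets. S100A9 and S100A10 had 2 probe sets each, called here the bright and the dim one by their mean signal, and S100A8, S100A12, S100A4 and S100A11 had 1 each. All 8 were in the test across 24016 probe sets that were not array controls, and none was filtered out.

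Multiparous Holstein cows were milked unequally: until day 21 of lactation the right side of the udder was milked 4 times daily (4×) and the left side 2 times daily (2×). Milking frequency and side of the udder therefore cannot be told apart in any difference between 4× and 2× glands. Both sides were then milked 2×, so that on days 23 and 40 "4×" names glands that had formerly been milked 4×. A biopsy was taken from each side of each of 6 cows on days 21, 23 and 40, giving 6 groups of 6 glands and 36 arrays, 1 for each biopsy. Cows are numbered here by the replicate number of the sample labels, which do not name cows. The biopsies came from rear glands on days 21 and 40 and from fore glands on day 23, so day 23 and gland position cannot be told apart. Levels are log2 signals as the authors normalized them, and a difference of 1 is a doubling. The question was how these genes differed between the 4× and the 2× gland of a cow, and whether the calgranulins (S100A8, S100A9 and S100A12) and the other 3 genes did so alike.

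S100 proteins are small proteins with paired EF-hand motifs, most of which bind calcium and then dock onto a partner protein. S100A8 and S100A9 pair to form calprotectin, which is abundant in neutrophils and monocytes, sequesters zinc and manganese and is released in inflammation, including mastitis. Epithelial cells can make the same proteins. S100A12 is a further calgranulin and a ligand of the receptor AGER. S100A4 is a protein of fibroblasts and other mesenchymal cells that binds non-muscle myosin, S100A10 is the partner of annexin A2 at the plasma membrane, and S100A11 is a partner of annexin A1. In the RefSeq gene table (ARS-UCD2.0), S100A8, S100A12 and S100A9 are consecutive coding genes, S100A11 and S100A10 are neighbours, and S100A4 lies between S100A3 and S100A5.

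The calgranulin probe sets had a few high arrays each, and all but the bright one of S100A9 had low signals. S100A12 lay between 4.44 and 8.02 over the 36 arrays with a median of 5.03, and 18 arrays were under 5, near the background of the array. S100A8 lay between 4.76 and 7.46 with a median of 5.36. The dim probe set of S100A9 lay between 3.54 and 7.27, and 33 of its 36 arrays were under 5. The bright one lay between 6.68 and 8.49 with a median of 6.97. The other 3 genes had signals well above the background on every array. S100A4 lay between 7.38 and 9.57, S100A10 between 8.13 and 10.96 by its bright probe set, and S100A11 between 10.76 and 12.39. Signals of different probe sets are not comparable as amounts of RNA, so no order among the genes is drawn from these levels.

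**Figure D1:**
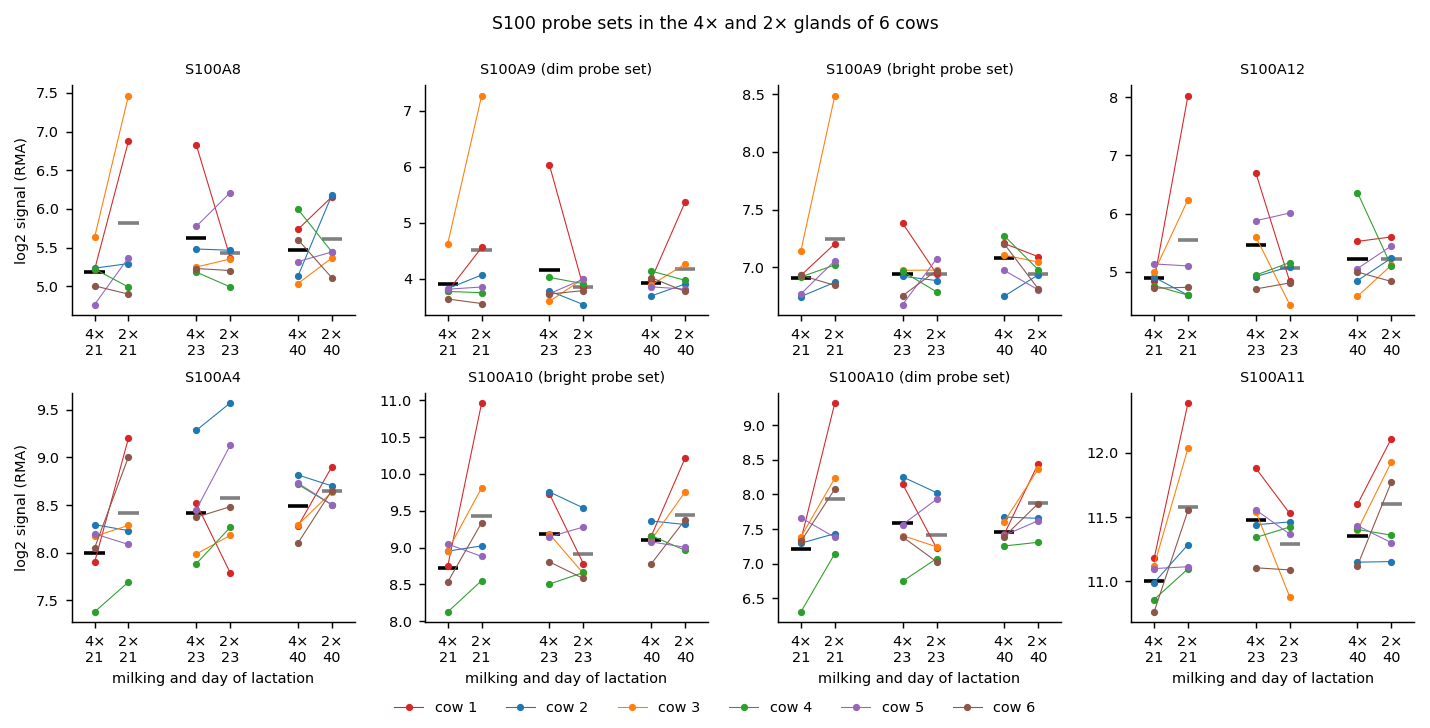
Log2 signal (y axis) of the 8 S100 probe sets in the 4× and the 2× gland of each of 6 cows on days 21, 23 and 40 (x axis), with a line joining the glands of a cow and a bar at the mean of each group. In every panel the lowest or next to lowest mean is that of the 4× glands on day 21, and in all panels but that of S100A4 the highest point is the 2× gland of cow 1 or cow 3 on day 21.

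The lowest mean of the 6 groups was that of 4× glands on day 21 for 7 of the 8 probe sets. S100A11 averaged 11.002 ± 0.16 there, followed by 11.29 ± 0.25 in 2× glands on day 23, 11.35 ± 0.18 in 4× glands on day 40, 11.48 ± 0.26 in 4× glands on day 23, 11.58 ± 0.53 in 2× glands on day 21 and 11.60 ± 0.39 in 2× glands on day 40 (SD, n = 6 each). S100A10 by its bright probe set had the same order of group means, from 8.73 ± 0.35 in 4× glands on day 21 to 9.44 ± 0.48 in 2× glands on day 40. S100A4 ran from 7.998 ± 0.33 in 4× glands on day 21 to 8.65 ± 0.15 in 2× glands on day 40. For S100A8, S100A12 and both probe sets of S100A9 the highest mean was that of 2× glands on day 21, where the spread was also the widest. On that day S100A8 averaged 5.18 ± 0.29 in 4× glands and 5.81 ± 1.08 in 2× glands, and S100A12 averaged 4.89 ± 0.15 in 4× glands and 5.55 ± 1.36 in 2× glands. The exception for the lowest mean was the dim S100A9 probe set, at 3.91 ± 0.36 in 4× glands on day 21 and 3.85 ± 0.17 in 2× glands on day 23. No neighbouring groups of these orders that were compared differed at an adjusted p under 0.05.

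On day 21, under unequal milking, all 8 probe sets had lower mean signals in 4× than in 2× glands, and none passed the adjusted threshold. S100A11 was lower in the 4× gland of 6 of 6 cows, and S100A10 in that of 5 by either probe set. S100A8 and S100A12 were far lower in the 4× gland of cows 1 and 3, and S100A9 in that of cow 3, and they differed little in most other cows. Differences within cows were tested with limma across all 24016 probe sets with Benjamini-Hochberg adjustment, and 0 probe sets passed an adjusted p of 0.05 on any of the 3 days. The SEs and limma p-values given here use a spread pooled over the 3 days. The SD over cows of the calgranulin mean difference was 0.90, 0.66 and 0.47 on days 21, 23 and 40. That of the other genes was 0.58, 0.35 and 0.39, so the pooled spread understates that of day 21. At an unadjusted p under 0.05, 6 of the 8 S100 probe sets were lower in 4× glands (2 of the 4 calgranulin and 4 of the 4 other probe sets) and 0 were higher, where 7.91% of all probe sets tested were lower and 8.02% higher. The median of the 8 differences was −0.62, against 0.02 over all probe sets, of which 44.4% had a negative difference. The direction of the 8 is not 8 separate observations, since probe sets of a gene share its RNA and the genes vary together over the arrays.

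S100A11 had 10.76, 11.04 and 11.18 as the lowest, median and highest signal of the 4× glands on day 21, against 11.10, 11.42 and 12.39 in the 2× glands. The groups overlapped only through the 2× glands of cows 4 and 5, which were close to their 4× glands, at 11.10 and 11.11. The difference within cows was −0.58 ± 0.14 (SE, n = 6), which is 1.49-fold lower in 4× glands, with an unadjusted p of 0.000382 and an adjusted p of 0.18 by limma. Cow 1 had −1.21, cow 3 −0.91, cow 6 −0.79, cow 2 −0.30, cow 4 −0.24 and cow 5 −0.01. An exact permutation test that flips the signs of the 6 differences (2-sided) gave p = 0.031, the smallest that its 64 arrangements allow.

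S100A10 had a lowest, median and highest signal of 8.13, 8.85 and 9.05 in 4× glands on day 21, against 8.55, 9.18 and 10.96 in 2× glands by the bright probe set. The 2× gland of cow 1, at 10.96, was the highest of the 36 arrays, and those of cows 3 and 6 were at 9.81 and 9.34. The difference within cows was −0.70 ± 0.22 (SE, n = 6, adjusted p = 0.181 by limma) and −0.71 ± 0.20 by the dim probe set (adjusted p = 0.18), with exact permutation p = 0.0938 for each. Cow 5 alone was higher in its 4× gland, by 0.17 and 0.28. Without cow 1 the mean difference was −0.40 by the bright and −0.46 by the dim probe set.

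S100A4 had 7.38, 8.11 and 8.29 as the lowest, median and highest signal of the 4× glands on day 21, against 7.69, 8.26 and 9.20 of the 2× glands. The groups overlapped, and the 2× glands of cows 1 and 6, at 9.20 and 9.005, stood above every 4× gland. The difference was −0.42 ± 0.17 (SE, n = 6, adjusted p = 0.249 by limma, exact permutation p = 0.156), lower in the 4× gland of 4 of 6 cows. It was −0.24 without cow 1.

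S100A8 had 4.76, 5.22 and 5.63 as the lowest, median and highest signal of the 4× glands on day 21, against 4.90, 5.33 and 7.46 of the 2× glands. The high values were those of the 2× glands of cow 3 (7.46) and cow 1 (6.88), and the other 4 lay between 4.90 and 5.37, within the range of the 4× glands. The difference was −0.64 ± 0.26 (SE, n = 6, adjusted p = 0.236 by limma, exact permutation p = 0.219), lower in the 4× gland of 4 of 6 cows. Cows 3 and 1 had −1.83 and −1.66, and the remaining 4 cows lay between −0.61 and 0.23. The mean was −0.40 without cow 3.

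S100A9, the partner of S100A8, was highest in cow 3. By the dim probe set the 4× glands had a lowest, median and highest signal of 3.64, 3.79 and 4.63 on day 21, against 3.56, 3.96 and 7.27 in 2× glands. By the bright one these were 6.75, 6.92 and 7.14 in 4× glands, against 6.84, 7.04 and 8.49 in 2× glands. For both probe sets the highest 2× gland was that of cow 3, whose difference was −2.64 by the dim and −1.34 by the bright probe set. The mean differences were −0.60 ± 0.31 (adjusted p = 0.347) and −0.34 ± 0.13 (SE, n = 6, adjusted p = 0.22 by limma), and −0.19 and −0.14 without cow 3.

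S100A12 had 4.72, 4.88 and 5.13 as the lowest, median and highest signal of the 4× glands on day 21, against 4.60, 4.92 and 8.02 of the 2× glands. The 2× gland of cow 1, at 8.02, and that of cow 3, at 6.24, were the only glands of that day above 5.13. The difference was −0.66 ± 0.35 (SE, n = 6, adjusted p = 0.367 by limma, exact permutation p = 0.469), and 3 of 6 cows were lower in the 4× gland. Cows 1 and 3 had −3.18 and −1.25, and the remaining 4 cows had values from −0.02 to 0.31. Leaving out cow 1 gave a mean of −0.15.

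**Figure D2:**
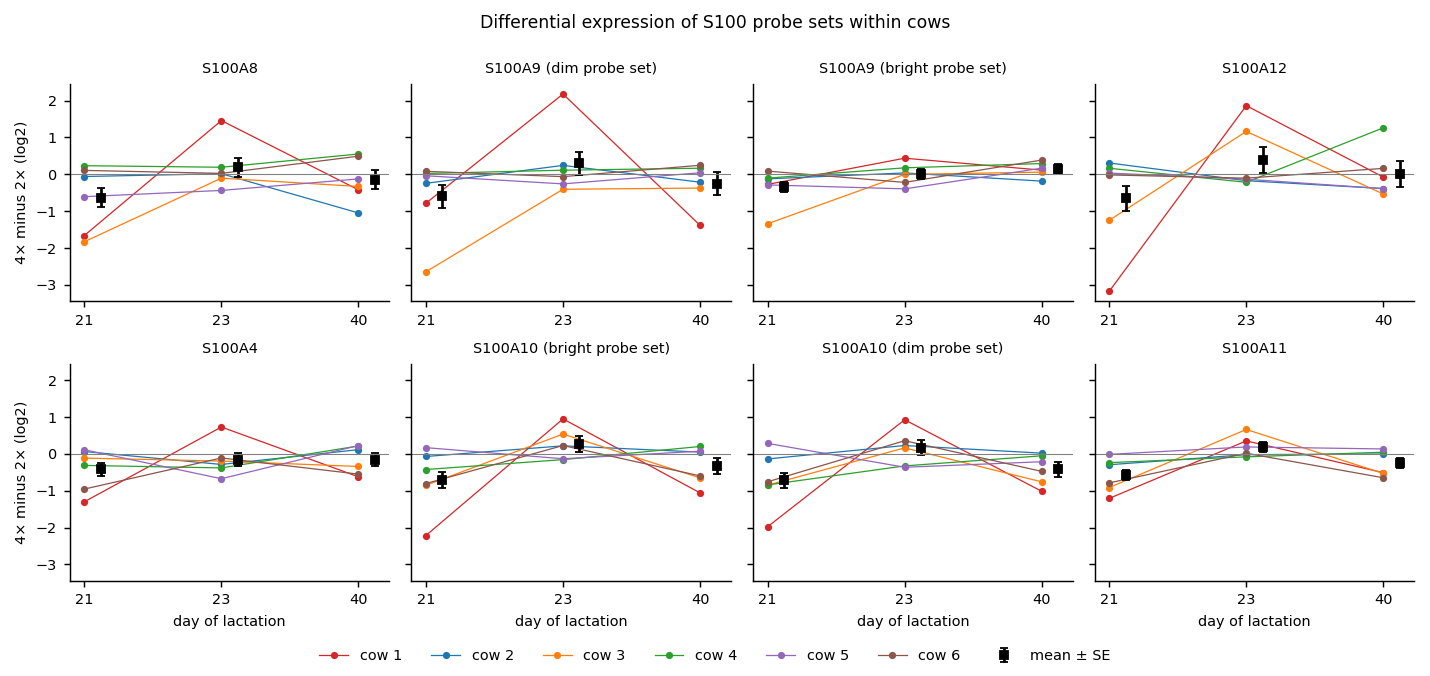
Difference 4× minus 2× within each of 6 cows (y axis, log2) on days 21, 23 and 40 (x axis) for the 8 S100 probe sets; squares with bars are the means ± SE of the limma fit. The differences of cows 1 and 3 are the lowest of day 21 for S100A8, S100A12 and the dim S100A9 probe set, down to −3.18 for S100A12, while for S100A11 all 6 cows lie below 0 on that day.

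Set side by side, the calgranulins and the other 3 genes had like mean differences on day 21. With probe sets of a gene averaged first, the mean over S100A8, S100A9 and S100A12 was −0.59 ± 0.90 (SD, n = 6 cows), and that over S100A4, S100A10 and S100A11 was −0.57 ± 0.58. For the calgranulins, cows 1 and 3 had means of −1.79 and −1.69, and the remaining 4 lay between −0.25 and 0.12. For the other 3 genes, cow 1 had −1.54, cow 6 −0.84, cow 3 −0.63, cow 4 −0.40, cow 2 −0.11 and cow 5 0.11. By gene, cow 3 was more negative than cow 6 for S100A11 (−0.91 and −0.79) and for S100A10 (−0.85 and −0.81 by the bright, −0.85 and −0.76 by the dim probe set), and less negative for S100A4 (−0.11 and −0.96). Cow 6 had a negative difference for S100A4, S100A10 and S100A11 and a calgranulin difference of 0.06. The calgranulin mean was −0.35 without cow 1 and −0.37 without cow 3, and that of the other 3 genes was −0.37 without cow 1. These means are descriptions, and the difference between the 2 kinds of gene was not tested.

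Because cows 1 and 3 stood apart on day 21, the values were also taken without them, a choice made after the values were seen. The calgranulin mean was then −0.01 and that of the other 3 genes −0.31. S100A11 was −0.33, S100A10 −0.28 (bright) and −0.36 (dim), S100A4 −0.27, S100A8 −0.08, S100A9 −0.04 (dim) and −0.11 (bright), and S100A12 0.12. S100A11 and the dim S100A10 probe set were the 2 of 8 probe sets that were then lower at an unadjusted p under 0.05, where 2.48% of all probe sets were. As these cows were left out for their low calgranulin differences, the smaller calgranulin values follow from that choice.

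Markers of other cell types were read on the same arrays, since fewer cells of a type and less RNA per cell cannot be told apart in the signals of a biopsy. By histology of these biopsies, the study found no effect of milking or day on the proportions of epithelial and stromal cells. Those counts did not separate the cell types listed here. Of 32 neutrophil markers 22 were measured, and 10 of these had a mean under 5, near the background: CXCR1, CAMP, CATHL1, CATHL2, CATHL3, CATHL4, CATHL6, ITGAM, NCF1 and IL1R2. On day 21, 2 of the 22 were lower in 4× glands at an unadjusted p under 0.05 and 0 were higher, with a median difference of 0.03. Over all probe sets 7.91% were lower and 8.02% higher. The 2 lower ones were LTF, lactoferrin, at −0.79 ± 0.25, which milk epithelium also makes, and ALOX5AP, an activator of leukotriene synthesis, at −0.31 ± 0.11 (SE, n = 6). The study chose LTF on these samples for its change from day 21 to day 23. The mean signal of the 22 ranged from 5.34 to 5.56 in 4× glands and from 5.40 to 5.56 in 2× glands on that day. In the 2× glands of cows 1 and 3, where the calgranulins were high, it was 5.44 and 5.56, the second of these the highest of the 2× glands of that day. LTF, at 13.49 and 13.44, and ALOX5AP, at 7.11 and 7.15, were also highest in these glands among the 12 of day 21. With 10 of 22 markers near the background, the list is a coarse measure of neutrophils, and their part in the calgranulin values was not tested.

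Luminal epithelial markers also had high values in the same glands. Of 12 markers 11 were measured, and on day 21, 8 were lower in 4× glands at an unadjusted p under 0.05 and 0 were higher, with a median of −0.34. CLDN4, a tight junction protein, had a difference of −0.92 ± 0.21, ELF3, an epithelial transcription factor, −0.56 ± 0.14, and KRT7, a simple epithelial keratin, −0.88 ± 0.25 (SE, n = 6), each lower in the 4× gland of 6 of 6 cows and with an adjusted p of 0.18 by limma. The study chose CLDN4 and KRT7 on these samples for their change from day 21 to day 23. The mean signal of the 11 ranged from 8.97 to 9.34 in 4× glands and from 9.06 to 10.43 in 2× glands on day 21, and the 2× glands of cows 1, 3 and 6 had 10.43, 9.98 and 9.53. These were the cows with the most negative differences of S100A11 and of the bright S100A10 probe set. By the dim S100A10 probe set cow 4 was more negative than cow 6, at 6.30 in the 4× and 7.14 in the 2× gland. The luminal mean of the 2× gland of cow 4 was 9.29. Of 11 measured macrophage markers 4 were lower and 1 was higher, and of 13 measured fibroblast markers 1 was lower and 0 were higher. Of the other lists, 3 of 10 T cell markers were lower and 1 higher, 2 of 10 secretory epithelial genes were higher, 1 of 9 myoepithelial genes was lower, 2 of 8 endothelial genes were higher and 0 of 4 adipocyte genes were called, where 7.91% of all probe sets were lower and 8.02% higher. The part of these cell types in the S100 differences was not tested.

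**Figure D3:**
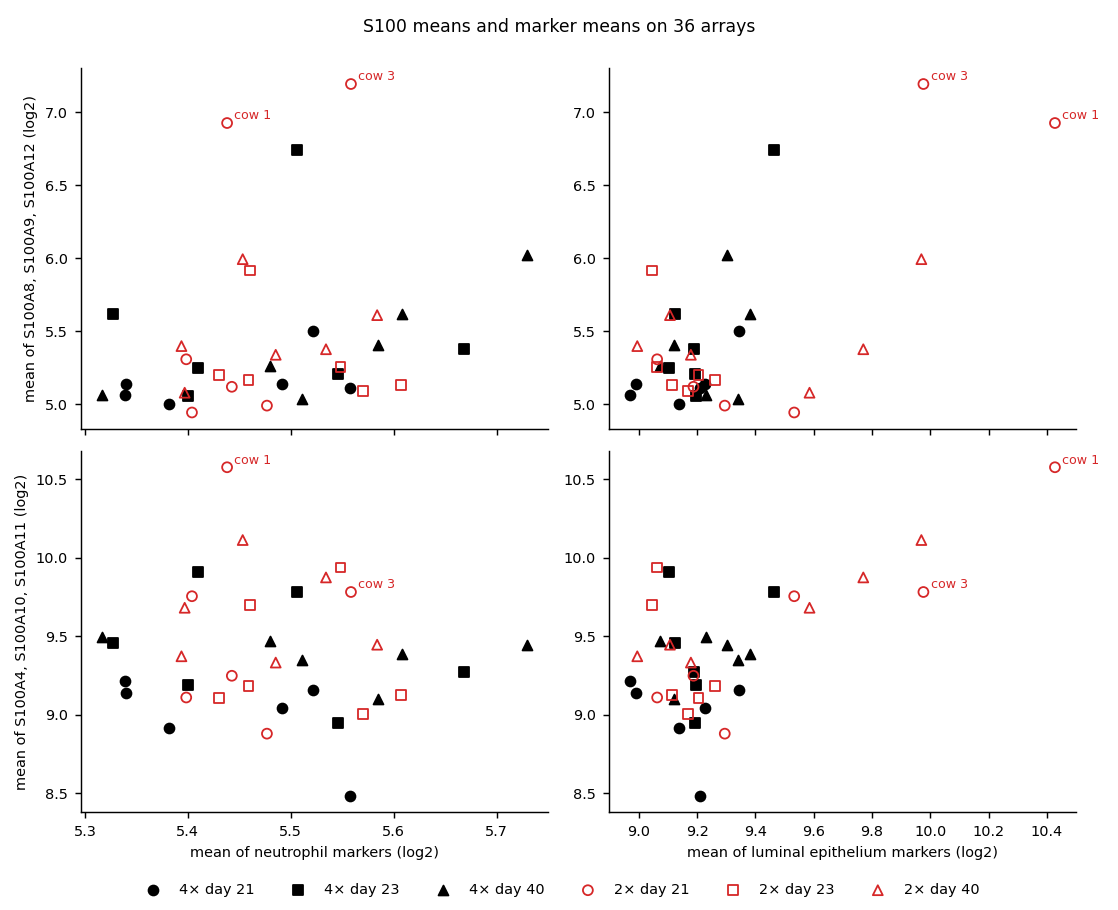
Mean log2 signal of S100A8, S100A9 and S100A12 (upper row) and of S100A4, S100A10 and S100A11 (lower row) against the mean of the neutrophil (left) and luminal epithelial (right) markers, 1 point for each of 36 arrays. The 2× glands of cows 1 and 3 on day 21, with calgranulin means of 6.93 and 7.19, have neutrophil means of 5.44 and 5.56, within the range of the other arrays, and luminal means of 10.43 and 9.98, the highest of all. The 2× gland of cow 1 on day 40 has a luminal mean nearly as high, 9.97, and a calgranulin mean of 5.99.

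On day 23, after both sides had been milked 2×, the differences were near 0 and mostly positive. At an unadjusted p under 0.05, 0 of the 8 probe sets were called, where 2.64% of all probe sets were, and 7 of 8 were positive with a median of 0.19, against 0.00 over all, of which 49.4% were negative. S100A12 was 0.40 ± 0.35, S100A9 0.30 ± 0.31 (dim) and 0.01 ± 0.13 (bright), S100A8 0.19 ± 0.26, S100A10 0.27 ± 0.22 (bright) and 0.16 ± 0.20 (dim), S100A11 0.19 ± 0.14 and S100A4 −0.15 ± 0.17 (SE, n = 6). Cow 1 carried most of the positive calgranulin differences. Its 4× gland had the highest signal of the day for S100A8 (6.83), S100A12 (6.70) and both probe sets of S100A9 (6.03 and 7.38). Its calgranulin mean was 1.54, and the remaining 5 cows lay between −0.30 and 0.29. The mean was 0.25 over all cows and −0.01 without cow 1. The 4× gland of cow 1 on day 23 also had the highest luminal epithelial mean of that day, 9.46, and its neutrophil mean was 5.51 within a range of 5.33 to 5.67 in the 4× glands.

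On day 40, again in rear glands, S100A4, S100A10 and S100A11 had negative mean differences and the calgranulins differed in sign. None of the 8 was called at an unadjusted p under 0.05, where 20.4% of all probe sets were. Of the 8, 6 were negative, against 43.4% of all, and the median was −0.21, against 0.03. S100A10 was −0.33 ± 0.22 (bright) and −0.42 ± 0.20 (dim), S100A11 −0.25 ± 0.14 and S100A4 −0.16 ± 0.17 (SE, n = 6, adjusted p from 0.249 to 0.589 by limma). S100A11 was lower in the 4× gland of cows 6, 3 and 1, at −0.65, −0.53 and −0.51, and between −0.01 and 0.13 in the other 3. These 3 cows had the 2× glands with the highest luminal means of that day, 9.59, 9.77 and 9.97. S100A8 was −0.15 ± 0.26, S100A9 −0.25 ± 0.31 (dim) and 0.14 ± 0.13 (bright), and S100A12 0.01 ± 0.35. The calgranulin mean was −0.07 ± 0.47 and that of the other 3 genes −0.26 ± 0.39 (SD, n = 6).

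The 4× gland of cow 4 stood apart for the calgranulins on day 40. It had the highest signals of the 4× glands that day for S100A12 (6.36) and S100A8 (6.00), and S100A7, psoriasin, was at 9.44 there and between 4.52 and 5.82 on the other 35 arrays. Its neutrophil mean, 5.73, was the highest of the day, and the part of neutrophils in these values was not tested. The S100A12 difference of that cow was 1.26, and the mean without it was −0.25.

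The difference 4× minus 2× was more positive on day 23 than on day 21 for all 8 probe sets, where 54.2% of all were more negative, and 5 of 8 (2 of 4 calgranulin, 3 of 4 other) were higher on day 23 at an unadjusted p under 0.05, where 5.65% of all probe sets were. None passed adjustment (adjusted p from 0.386 to 0.712 by limma). The study chose S100A12 on these samples for this change, so its value is not independent evidence, and this contrast shares the day 21 arrays with the differences above. S100A11 gave 0.76 ± 0.19 (SE, n = 6), positive in 6 of 6 cows (exact permutation p = 0.031), and S100A10 gave 0.97 ± 0.31 (bright) and 0.88 ± 0.29 (dim), positive in 5 of 6. S100A8 gave 0.83 ± 0.36, S100A9 0.90 ± 0.44 (dim) and 0.35 ± 0.19 (bright), and S100A4 0.26 ± 0.25. S100A12 gave 1.06 ± 0.50 and was positive in 2 of 6 cows, namely cows 1 and 3 (5.04 and 2.41), while the remaining 4 lay between −0.48 and −0.09. Without cows 1 and 3, which were left out for their day 21 values, the count was 0, S100A11 was 0.36 and S100A12 was −0.28. Without cow 1 the count was 3, and without cow 3 it was also 3. Of the 11 luminal markers 9 had a higher difference on day 23 by the same unadjusted threshold. The study also chose CLDN4, KRT7 and KRT8 on these samples for this change, KRT8 by another probe set. That count is therefore not independent evidence either. Among 22 neutrophil markers 2 were higher and 1 was lower. From day 21 to day 40, 1 of 8 was higher at an unadjusted p under 0.05 (the bright S100A9 probe set), where 2.71% of all were, and 0 without cow 3.

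Within a side of the udder, the days were compared with cow as a block. The glands of day 23 were fore glands and those of days 21 and 40 rear glands. Day 23 and gland position therefore cannot be told apart here. In 4× glands, S100A11 and the bright S100A10 probe set were higher on day 23 than on day 21 at an unadjusted p under 0.05 (2 of 8, where 1.82% of all probe sets were), and S100A11 and S100A4 were higher on day 40 than on day 21 (2 of 8, against 3.44%). In each of these, the gland of the later day was higher in 6 of 6 cows. In 2× glands, both probe sets of S100A10 and the bright one of S100A9 were lower on day 23 than on day 21 (3 of 8, against 8.65%), but the cows were split. S100A10 was lower on day 23 in 3 of 6 cows by the bright (−0.51) and in 4 of 6 by the dim probe set (−0.51), and S100A9 in 3 of 6 (−0.31), with exact permutation p of 0.312, 0.344 and 0.25. Without cows 1 and 3 these values were 0.066, 0.0049 and −0.018, and the 2 probe sets then called were S100A12 (0.51) and S100A4 (0.61), both higher on day 23, where 1.53% of all probe sets were. As these cows were left out for their day 21 values, the baseline here, the changed values follow at least in part from that choice. The bright S100A9 probe set was lower on day 40 (1 of 8, against 3.73%). None of these passed adjustment, which 0.0583% of all probe sets did in 4× glands and 0.00416% in 2× glands for day 40 against day 21, and 0 for day 23. The S100A11 signal in 4× glands had medians of 11.04, 11.49 and 11.40 on days 21, 23 and 40. These counts moved with single cows: without cow 3 the 2× count of day 23 was 0, without cow 1 or cow 6 it was 1, and the 2× count of day 40 was 0 without cow 3 or cow 5. The 4× count of day 23 was 1 without cow 1, 2, 4 or 6, and that of day 40 was 0 without cow 4 and 1 without cow 5.

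Across the 36 arrays, signals of the calgranulins mostly went together, as did those of the other 3 genes, but the split between the kinds was not clean. Pearson's r was between 0.46 and 0.86 (median 0.78) for the 6 pairs of calgranulin probe sets, between 0.47 and 0.96 (median 0.75) for the 6 pairs of the others, and between −0.02 and 0.70 (median 0.46) for the 16 pairs across them. The highest of each kind, 0.86 and 0.96, were those between the probe sets of S100A9 and between those of S100A10. S100A12 had r = 0.80 with S100A8, but 0.52 and 0.46 with the dim and the bright S100A9 probe set. Its r was 0.70 and 0.60 with the bright and the dim S100A10 probe set and 0.69 with S100A11. S100A4 had r = 0.47 with S100A11. The arrays share cows and days, so these are descriptions, and a few arrays carry much of them for the calgranulins.

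The 3 genes most like each S100 gene over the 36 arrays were taken by Pearson's r, with 1 probe set for each gene. S100A10 by its bright probe set was most like ANXA1 (r = 0.94), LDHA (0.93) and TIMP1 (0.91), and by its dim one like the same 3 genes (0.90, 0.88 and 0.87). S100A11 was most like ANXA2 (0.89), CLIC1 (0.89) and CRYAB (0.88). ANXA1 and ANXA2 are annexins, LDHA is lactate dehydrogenase A, TIMP1 is an inhibitor of metalloproteinases, CLIC1 is a chloride channel protein and CRYAB is a small heat shock protein. CRYAB was chosen by the study on these samples for its change from day 21 to day 23. S100A4 was most like LGALS1 (0.80), VIM (0.78) and TIMP1 (0.75), of which VIM is vimentin, the mesenchymal intermediate filament. S100A4 also had r = 0.56 with the mean of the 13 fibroblast markers and 0.24 with that of the luminal markers (rho 0.58 and 0.03). S100A11 had −0.08 with the fibroblast markers and 0.81 with the luminal markers (rho 0.05 and 0.54). With the mean of the 9 myoepithelial markers r was like for the 3 genes, at 0.59 for S100A4, 0.57 and 0.61 for the bright and the dim S100A10 probe set and 0.59 for S100A11.

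For the calgranulins the nearest genes differed from one to the next. S100A12 was most like ITPRIP (0.80), IFI30 (0.79), a lysosomal thiol reductase, and LDHA (0.79). S100A8 was most like RAB7B (0.79), LOC513055 (0.79) and FTH1 (0.77), the ferritin heavy chain. S100A9 by its dim probe set was most like CP (0.90), ceruloplasmin, C4BPA (0.89), a complement inhibitor, and ALOX15B (0.86), a lipoxygenase, and by its bright one most like RNF183 (0.88), RAMP1 (0.82) and CP (0.80). C4BPA and the LOC513055 probe set, which the study names RGS2, were chosen by it on these samples for their change from day 21 to day 23. Spearman's rho of S100A9 with CP was 0.36 by either probe set, where the high arrays weigh less. The mean of the neutrophil markers had r between 0.15 and 0.44 with the calgranulins, and that of the luminal markers r between 0.52 and 0.60. By rho the order was the other way for each probe set, at 0.31 with the neutrophil and 0.09 with the luminal markers for S100A8, 0.364 and 0.356 for the dim and 0.63 and 0.43 for the bright S100A9 probe set, and 0.16 and 0.08 for S100A12.

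Of a list of 16 genes, the other S100 genes and S100PBP, 9 were measured. By the unadjusted threshold, 4 were lower in 4× glands on day 21 and 1 was higher, where 7.91% and 8.02% of all probe sets were, and none passed adjustment. S100A2 was −1.08 ± 0.36, S100A14 −0.87 ± 0.27, S100A13 −0.79 ± 0.20 and S100A1 −0.46 ± 0.16, and S100B was 0.24 ± 0.09 (SE, n = 6). S100A13, which takes part in the release of fibroblast growth factor 1, was lower in the 4× gland of 6 of 6 cows. S100A2 had 9.32 and 10.38 in the 4× glands of cows 1 and 3 on day 21, against 12.21 and 12.55 in their 2× glands, so on that day the same 2× glands were high as for the calgranulins. On day 40 the 2× glands of these cows were also high for S100A2, at 11.28 and 11.86. Their calgranulin means were then 5.99 and 5.38, where the 2× glands of that day ranged from 5.08 to 5.99. S100A16, S100G, S100A7 and S100PBP, a binding partner of S100P, were −0.15 ± 0.10, 0.03 ± 0.08, 0.07 ± 0.34 and 0.12 ± 0.09. On day 23, 0 of 9 were called, where 2.64% of all probe sets were. On day 40, when 8.86% of all were lower and 11.6% higher, S100A14 was lower (−0.62 ± 0.27), and S100A7 (0.77 ± 0.34) and S100G (0.19 ± 0.08, with signals under 4 on every array) were higher, the S100A7 value resting on the 1 gland of cow 4 given above. The study chose S100A2 and S100A14 on these samples for their change from day 21 to day 23.

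**Figure D4:**
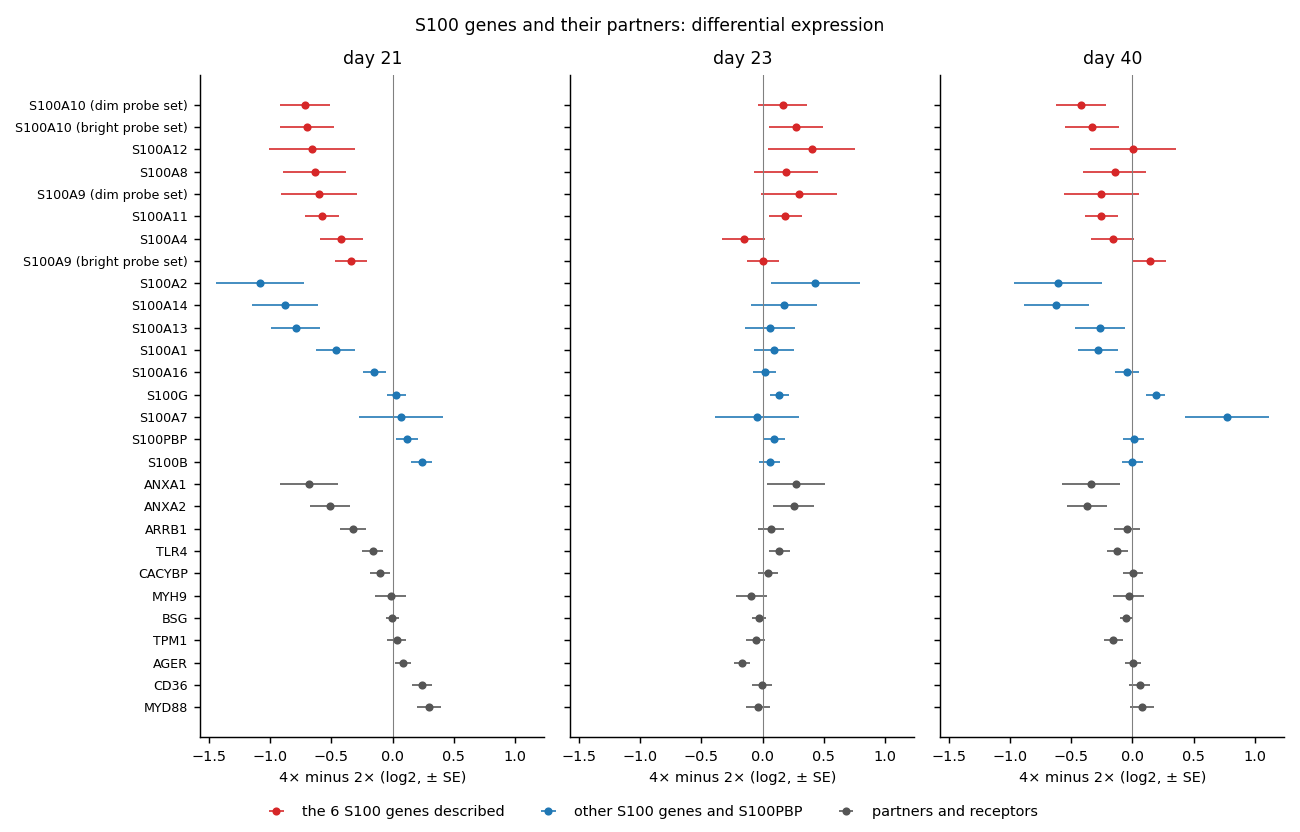
Difference 4× minus 2× (x axis, log2, mean ± SE of the limma fit over 6 cows) on days 21, 23 and 40 for the 8 S100 probe sets described, the 9 measured genes of the list of other S100 genes and S100PBP, and 11 partners and receptors (y axis). On day 21 S100A2, at −1.08, lies lowest, and ANXA1 and ANXA2, at −0.68 and −0.51, lie near S100A10 and S100A11, while on day 23 most values are close to 0.

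Of 13 partners and receptors of S100 proteins listed, 11 were measured. On day 21 both annexins were lower at an unadjusted p under 0.05. ANXA2, which binds S100A10, was −0.51 ± 0.17 and lower in the 4× gland of 6 of 6 cows, and ANXA1, which binds S100A11, was −0.68 ± 0.24 and lower in 4 of 6 (SE, adjusted p = 0.182 and 0.19 by limma). ARRB1, an arrestin, was −0.33 ± 0.11. The receptors TLR4, AGER and BSG, which bind calgranulins, were −0.16 ± 0.09, 0.09 ± 0.07 and 0.00 ± 0.06. MYD88, the adaptor of Toll-like receptors, was higher at an unadjusted p under 0.05 (0.30 ± 0.10), as was CD36, a fatty acid transporter (0.24 ± 0.08, higher in 6 of 6 cows). The targets MYH9 and TPM1, a non-muscle myosin and a tropomyosin, were −0.02 ± 0.13 and 0.03 ± 0.08, and CACYBP was −0.10 ± 0.08. That is 3 of 11 lower and 2 higher on day 21, where 7.91% and 8.02% of all probe sets were. On day 23, 1 of 11 was lower (AGER, −0.17 ± 0.07), where 1.26% of all were, and on day 40, 1 of 11 was lower (ANXA2, −0.37 ± 0.17), where 8.86% were.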

How the data were processed

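RNA from 36 mammary biopsies was hybridised to GeneChip Bovine Genome Arrays, 1 array for each biopsy. The deposited values are log2 signals for 24128 probe sets, made by the authors with the Robust Multichip Average (background correction, normalization between arrays, summary of probes), a method whose version is not given in the sources used here. Such values have a floor, so differences of dim probe sets are compressed, and 7491 probe sets had a mean under 5. Array medians lay between 6.04 and 6.15. The number of arrays limits the precision.

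Groups and days came from the sample labels. These labels give a replicate number and do not name cows. Arrays with the same replicate number were taken as the same cow on both sides and all days. After removal of 112 control probe sets, the 18 differences 4× minus 2× within cows were fitted with limma 3.58.1 (lmFit, eBayes) in R 4.3.3, with 1 mean per day and 1 pooled spread. Benjamini-Hochberg adjustment ran over 24016 probe sets, with a threshold of 0.05. Days within a side of the udder were compared on the 36 arrays with cow as a block. Single values also had an exact permutation test (2-sided, flipping the sign of each cow's difference) in Python 3.11.15. The glands of a cow are paired by the animal: after removal of the group means, the arrays of a pair correlated positively in 18 of 18 pairs (r from 0.242 to 0.665).

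All probe sets of the 6 genes are named, as are the 3 genes most like each by Pearson's r, all measured genes of the lists of other S100 genes and partners, and of each cell type list the 3 with the smallest unadjusted p or those near the background where they are called. For genes outside the 6, the probe set with the highest mean was used. The genes and lists were chosen with earlier results of these data known. S100A10 and S100A11 are also in pathway lists that the study made from these samples. Symbols came from the array annotation, in which 13318 probe sets have 1 symbol, 86 have several and 10724 have none, and all 8 probe sets matched a RefSeq gene by identifier. The fits were tested on simulated data. Alternatives were other handling of cow, moderation, array weights, scaling to the median or to 7 reference genes, filters, probe sets and cows left out.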

Additional observations from a re-analysis of the deposited data

Results flagged for a closer look

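In groups of 6 glands, the highest or lowest value was tested for its distance from the other 5 (Dixon's test). Of 72 such groups of the S100 probe sets described, 11 were flagged, 5 of them for cow 1 and 5 for cow 3. Chance flags about 1 in 20 groups, and the groups are not independent.

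The 4× gland of cow 1 on day 23 stood above the others for S100A8 (6.83, with a difference 4× minus 2× of 1.46) and for the dim S100A9 probe set (6.03, with a difference of 2.18). The 2× gland of cow 3 on day 21 stood above the others for the dim and the bright S100A9 probe sets (7.27 and 8.49), with differences of −2.64 and −1.34. Its 4× gland was also the highest of its group for the dim one, at 4.63. For the same probe set, the 2× gland of cow 1 on day 40 was at 5.37. The 4× gland of cow 4 on day 21 was the lowest for the dim S100A10 probe set, at 6.30.

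Among the other S100 genes and S100PBP, 14 of 81 groups were flagged. S100A7 was at 9.44 in the 4× gland of cow 4 on day 40, with a difference of 4.08. S100A2 was at 10.38 in the 4× gland of cow 3 on day 21 and at 10.99 in that of cow 1 on day 23, with a difference of 1.87 in the second. S100A1 was at 6.92 in the 2× gland of cow 3 on day 40, with a difference of −1.09. S100A16 was at 8.57 in the 2× gland of cow 5 on day 23, and its differences in cow 1 were −0.73 on day 21 and −0.60 on day 40. S100B was at 12.07 in the 4× gland and 12.001 in the 2× gland of cow 2 on day 23, the lowest of both groups. The S100G difference of cow 3 on day 23 was 0.40, and S100PBP was at 5.40 in the 4× gland of cow 2 on day 40.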

How the results depend on the processing

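No S100 probe set passed an adjusted p of 0.05 in any comparison under any alternative that was run, and the mean differences of both kinds of gene stayed within 1 SD of the values given. That SD is over the 6 cows and was 0.90 for the calgranulins on day 21, wider than their mean difference of −0.59. A loss of that difference, as without cows 1 and 3, therefore also counts as within 1 SD. Counts at an unadjusted p under 0.05 depended on the setting. Of the 8 probe sets, 6 were lower on day 21, and the count was 4 without pairing glands by cow (no replicate block), from 4 to 7 with a cow left out, and 2 without cows 1 and 3. On day 23 it was 0, from 0 to 1 with a cow left out, and 1 without cows 1 and 3. On day 40 it was 0, from 0 to 2 with a cow left out, 3 with the spread of that day alone, and 1 with array weights, with arrays centred on their medians, with arrays scaled to reference genes and without the day 21 pair of cow 1. For the change from day 21 to day 23 it was 5, from 3 to 7 with a cow left out, 3 with no replicate block, no moderation, array weights or without the day 21 pair of cow 1, and 0 without cows 1 and 3. For the change to day 40 it was 1, 3 with the spread of each day alone, from 0 to 1 with a cow left out, and 0 without cows 1 and 3.

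Within 4× glands on day 23 the count was 2, from 1 to 3 with a cow left out, 1 with no replicate block, no moderation, trended robust moderation or centred arrays, and 4 with array weights. On day 40 it was 2, from 0 to 3 with a cow left out, 1 with no moderation and 0 with no replicate block. Within 2× glands on day 23 it was 3, from 0 to 4 with a cow left out, 2 other probe sets without cows 1 and 3, 1 with array weights and 0 with no replicate block. On day 40 it was 1, from 0 to 1 with a cow left out, 2 with array weights, and 0 with no replicate block, no moderation, centred or scaled arrays or without cows 1 and 3. Over all probe sets on day 21, 3826 had an unadjusted p under 0.05, against 1858 with no replicate block and 1123 without cows 1 and 3.

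Some differences turned in sign. Within 2× glands, day 23 against day 21, 6 of 8 turned without cows 1 and 3, namely S100A8 (0.33, against −0.38 over all cows), S100A12 (0.51, against −0.49), the bright and the dim S100A10 probe set (0.066 and 0.0049, against −0.51 for each), S100A11 (0.073, against −0.29) and the dim S100A9 probe set (0.0013, against −0.66). In the same comparison S100A12 was 0.021 with array weights and ranged from −0.77 to 0.046 with a cow left out, and S100A4 from −0.085 to 0.46. The other differences that turned were those of 4× minus 2×. Without cows 1 and 3, S100A12 was 0.12 on day 21 and −0.16 on day 23, its change between these days was −0.28, S100A4 was 0.00084 on day 40 and −0.090 for that change, and S100A8 (−0.051), the bright S100A9 probe set (−0.10) and the dim S100A10 probe set (−0.027) turned on day 23, as did the dim S100A9 probe set on day 40 (0.060). With a cow left out, the day 23 differences ranged from −0.061 to 0.32 for S100A8, from −0.075 to 0.44 for the dim and from −0.080 to 0.086 for the bright S100A9 probe set, the day 40 differences from −0.29 to 0.034 for S100A8 and from −0.25 to 0.11 for S100A12, and the S100A4 change from day 21 to day 23 from −0.088 to 0.47. S100A12 on day 40 was −0.024 with array weights and −0.027 with centred arrays, and the bright S100A9 probe set on day 23 was −0.027 with scaled arrays. The cause was not tested. The choice to leave out cows 1 and 3 was made after the data were seen. Signals of S100A12 and the dim S100A9 probe set near the background limit what their differences can show.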
